A study of Mus musculus with 4 samples.

Results

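The livers of mice with AApoAII amyloidosis were compared with and without interval training (IT), using 2 of the 4 liver libraries of the study, named FI and FS, and the 9168 of 35275 listed genes that reached at least 5 CPM (read counts scaled to a common library size) in FI or FS. FS mice were female, had been injected intravenously with AApoAII fibrils and stayed sedentary. FI mice received the same fibrils and ran IT on a treadmill for 16 weeks, starting at the time of injection. Livers were taken at 26 weeks of age, within a day of the last training period, and no source used here states the hour of dissection or whether the mice were fed. All mice carried the amyloidogenic Apoa2c allele of apolipoprotein A-II. The study's methods place this allele on a SAMR1 background (strain R1.P1-Apoa2c), whereas the strain label reads AKR/J and the genotype label names an Apoa2c congenic. Each library holds the pooled livers of 4 mice, so 8 mice stand behind the comparison, pooling hides how they differed, and with 1 library per group no value has a replicate error. Vehicle-injected mice of the same age and sex, sedentary (VS) or trained by IT (VI), gave the other two libraries. They share no library with FI and FS, and their values are set beside those of the amyloid-bearing livers. How the change in one pair differed from that in the other could not be tested with 1 library per group.

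In AApoAII amyloidosis, the HDL protein apolipoprotein A-II, which hepatocytes make and secrete, misfolds and is laid down as fibrils outside the cells of many organs. The liver is also the organ that supplies other tissues with glucose and ketone bodies during exercise and fasting, under the control of glucagon, adrenaline, glucocorticoids and the fatty acid sensor PPAR alpha. Its synthesis of cholesterol is driven by the transcription factor SREBP2 when cell sterols are low, and its large output of plasma proteins is folded in the endoplasmic reticulum (ER) by chaperones that the unfolded protein response (UPR) controls.

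Total counts were 28814802 in FS and 24801185 in FI, so a level of 5 CPM stands for about 148 counts in FS and 121 counts in FI. Albumin (Alb) took 13.6% of the counts in FS and 13.2% in FI, and mitochondrial genes took 3.04% and 2.99%. Log2 ratios of FI over FS were formed after adding 0.5 counts, and the intervals given with them are exact 95% counting intervals. The reads carry no molecular identifiers and can repeat 1 molecule, so the intervals cover counting error only, not the spread between mice, pools or RNA preparations. No test across mice was possible, and a gene is called higher (it rose) or lower (it fell) where its log2 ratio lay beyond 1 in size, that is, where it changed by more than 2-fold. The vehicle libraries stood apart in transcripts of skeletal muscle: 13 markers summed to 78.5 CPM in VS and 10.2 in VI but to 1.12 in FS and 1.07 in FI. Adipose markers summed to 634 CPM in FS, 398 in FI, 1380 in VS and 521 in VI, so VI lay between FI and FS. Nearly all of each sum was Car3 (1377 CPM in VS), which hepatocytes also express, so the sums do not measure adipose tissue. The part of muscle transcripts in the values of VS and VI given below was not tested.

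Most of the liver transcriptome was alike in both libraries. Of the 9168 genes, 8369 (91.3%) lay within 1.5-fold of each other, the median log2 ratio was 0.01, and the middle 95% of the genes had log2 ratios from −0.74 to 0.70. In all, 181 genes (1.97%) changed by more than 2-fold, of which 72 (0.785%) rose and 109 (1.19%) fell in FI. The genes that rose took 0.579% of all CPM in FS and 1.40% in FI, while the genes that fell took 0.580% in FS and 0.236% in FI. Between VI and VS, 73 (0.796%) of the same 9168 genes rose and 45 (0.491%) fell. Among the 72 genes that rose in FI, 25 (34.7%) also rose in VI over VS, 45 lay within 2-fold there and 2 fell. Among the 109 that fell in FI, 27 (24.8%) also fell in VI, 81 lay within 2-fold and 1 rose. By counting error alone, the interval of the log2 ratio lay above 0 for 2640 genes (28.8%) and below 0 for 2455 (26.8%), so an interval that leaves out 0 is common at this depth. These shares, and the 0.785% and 1.19% of genes that rose and fell, are the background for every list count below. The filter also keeps genes that reach 5 CPM in 1 library alone. With 5 CPM required in both FI and FS, 50 genes rose and 65 fell. In liver tissue, fewer cells of a type and less RNA per cell cannot be told apart.

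**Figure D1:**
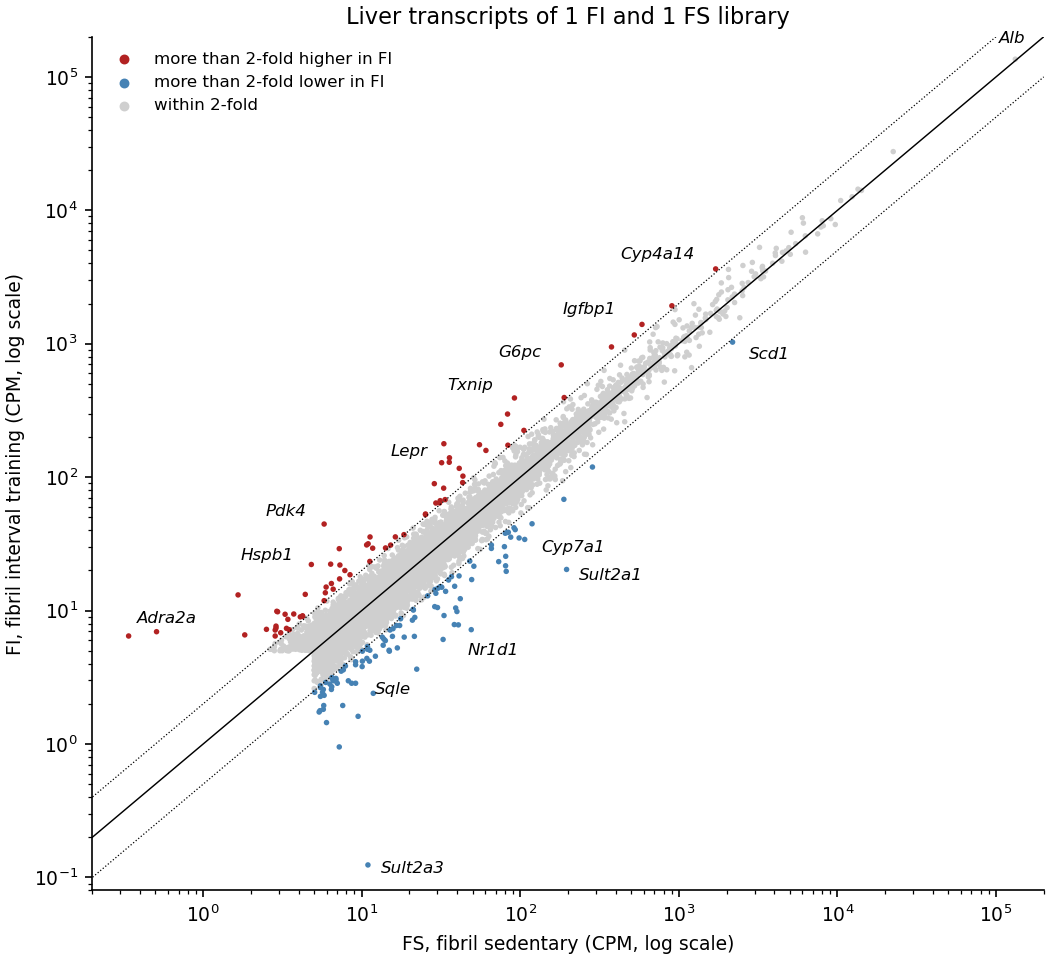
CPM in FS (horizontal axis, log scale) against CPM in FI (vertical axis, log scale) for the 9168 genes, 1 point per gene. Red points are the 72 genes more than 2-fold higher in FI, blue points the 109 genes more than 2-fold lower, grey points lie within 2-fold; the solid line marks equal levels and the dotted lines 2-fold. Abundant genes such as Alb lie on the line.

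The 12 largest rises included genes of fuel use, receptors and a small heat shock protein. Adra2a (chr19:54045182-54048982, mm10), the alpha-2A adrenergic receptor, was at 0.339 CPM in FS and 6.45 in FI, beside 0.635 in VS and 4.76 in VI. It was the steepest rise, with a log2 ratio of 4.19 (interval 3.33 to 5.34) that rests on 10 counts in FS. Pdk4 (chr6:5483351-5496309), the kinase that shuts pyruvate out of the tricarboxylic acid cycle, was at 5.79 CPM in FS and 44.5 in FI, a log2 ratio of 2.94 (2.71 to 3.18). In the vehicle pair it was at 26.0 CPM in VS and 51.0 in VI. The level in FS was thus the low one of the 4 libraries, and both trained libraries lay near each other. Fam107a, an actin-associated stress protein gene, was at 1.66 CPM in FS and 13.1 in FI, against 0.551 in VS and 1.23 in VI.

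Hspb1 (chr5:135887919-135889563), which encodes the small heat shock protein HSP27, an ATP-independent chaperone, was at 4.81 CPM in FS and 22.2 in FI, a log2 ratio of 2.20 (1.93 to 2.48). It was at 13.7 CPM in VS and 6.69 in VI, so it rose in the fibril pair and fell in the vehicle pair. The study's quantitative PCR of individual livers reported Hspb1 higher in VI, in FS and in FI than in VS. For VI and FS that direction is the opposite of the one in these pools. Txnip, an arrestin-like protein that restrains glucose uptake, went from 91.8 to 392 CPM, and G6pc, the catalytic subunit of glucose-6-phosphatase that releases free glucose, from 181 to 694 CPM. Lepr, the leptin receptor gene, was at 35.6 CPM in FS and 129 in FI. The log2 ratios of Lepr in the fibril pair and the vehicle pair, 1.86 and 1.83, were nearly equal. Plin4 (7.21 to 29.1 CPM), a lipid droplet coat protein, was also among the 12 largest rises as ranked by the interval bound nearest to 0. So were Ppp1r3g (31.9 to 128 CPM), a glycogen-targeting subunit of protein phosphatase 1, and Etnppl (35.7 to 140 CPM), which breaks down phosphoethanolamine. Acot1 (83.1 to 297 CPM), a cytosolic acyl-CoA thioesterase, was another, beside 342 CPM in VS and 361 in VI. For Acot1 both FS and FI thus lay below the vehicle libraries.

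The 12 largest falls included 3 sulfotransferase genes (Sult2a1, Sult2a3 and Sult2a5), genes of the sterol pathway and the clock gene Nr1d1. Sult2a3 (chr7:14067452-14123044) was at 10.9 CPM in FS (323 counts) and 0.124 CPM in FI (3 counts), a log2 ratio of −6.24 with an interval from −8.75 to −4.90. Sult2a1 was at 196 CPM in FS and 20.3 in FI, beside 322 in VS and 38.4 in VI. Both encode hydroxysteroid sulfotransferases, which attach sulfate to steroids and bile acids, and both trained libraries were low. Nr1d1, the clock repressor REV-ERB alpha, was at 49.0 CPM in FS and 7.19 in FI. Smoc2, a matrix-associated calcium-binding protein gene, was at 9.48 CPM in FS and 1.61 in FI, and Gstm3, a glutathione S-transferase gene, at 32.6 and 6.08 CPM. These last genes were at 2.29 and 8.34 CPM in VS, so FS held the high level of the 4 libraries for each. The 12 largest falls also held Sqle, Idi1 and Msmo1 of the sterol pathway, Sult2a5, the arrestin-domain gene Arrdc3 (81.5 to 19.7 CPM) and the water channel gene Aqp8 (39.8 to 9.84 CPM).

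**Figure D2:**
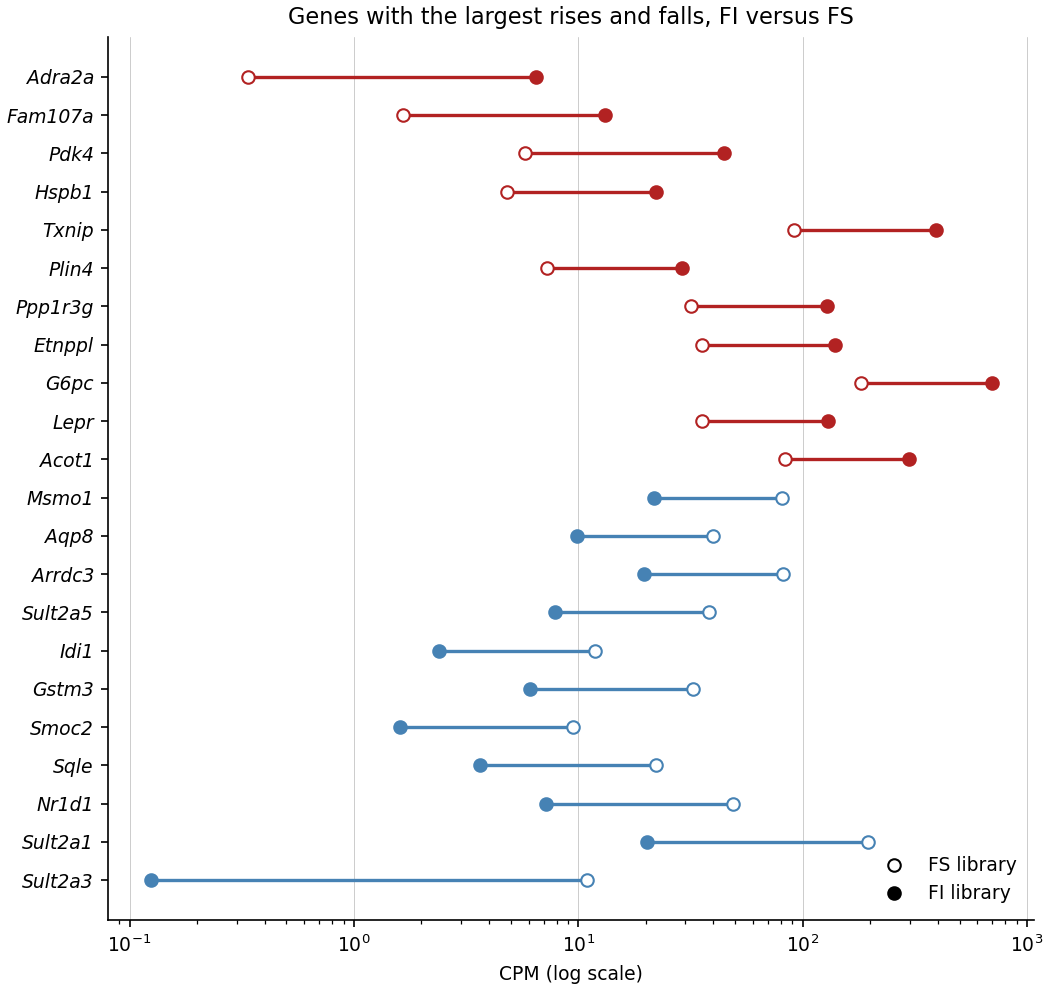
CPM on a log scale (horizontal axis) of 11 of the 12 genes with the largest rise (red) and 11 of the 12 with the largest fall (blue), 1 gene per line, with an open circle for the FS library and a filled circle for the FI library. The rises range from Acot1 to Adra2a and the falls from Msmo1 to Sult2a3, which had 3 counts in FI.

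Counted in CPM rather than as ratios, the 10 largest differences were in abundant liver transcripts, all of them within 2-fold but Cyp4a14, which rose from 1706 to 3638 CPM. Apoe, which encodes the apolipoprotein of lipoprotein remnants, was at 22474 CPM in FS and 27554 in FI, a log2 ratio of 0.29. Cyp2e1, the ethanol-inducible cytochrome P450 gene, was at 6011 and 8798 CPM, and Tat, tyrosine aminotransferase, at 3226 and 5278 CPM. Fgb, the fibrinogen beta chain, was at 9689 CPM in FS and 7828 in FI, and Ttr, transthyretin, at 6294 and 4857 CPM.

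Some transcripts of fasting and fat use rose in FI, and none of the lists of PPAR alpha targets, fatty acid oxidation and lipid droplets had a member that fell. Of 20 listed PPAR alpha and fasting targets, 19 passed the filter, 6 rose, none fell, and their median log2 ratio was 0.46, against 0.01 over all genes tested and 0.08 for the same list between VI and VS. Besides Pdk4, Txnip and Acot1, the members that rose were Plin5, which tethers lipid droplets to mitochondria, and the fatty acid omega-hydroxylase genes Cyp4a10 and Cyp4a14. Plin5 was at 75.3 CPM in FS and 249 in FI. Cyp4a14 was at 1706 CPM in FS and 3638 in FI, and at 2938 in VS and 3528 in VI. Cyp4a10 was at 904 CPM in FS and 1926 in FI, and at 1916 in VS and 2173 in VI. For each of them FS was the low library, and both belong to a family of near-identical copies whose reads the counting may have divided. At the other end of the list, the fatty acid transporter gene Cd36 was at 41.0 and 22.5 CPM and the fatty acid-binding protein gene Fabp1 at 2422 and 1565 CPM, log2 ratios of −0.86 and −0.63.

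The enzymes of fatty acid oxidation and ketogenesis lay within 2-fold. All 20 listed genes passed the filter, and 18 had an interval above 0 and 1 below, with a median log2 ratio of 0.24 beside −0.19 between VI and VS. The one below was Bdh1, which makes the ketone body hydroxybutyrate, at 355 and 314 CPM. Summed over the list, the genes made up 10712 CPM in FS and 11987 in FI, beside 18434 in VS and 14762 in VI. Both fibril libraries thus lay below both vehicle libraries. Cpt2, which reforms acyl-CoA inside the mitochondrion, had the highest ratio of the list, at 123.2 CPM in FS and 174 in FI. Cpt1a, the gate of mitochondrial fatty acid entry, was at 394 and 419 CPM. In the list of lipid droplet and lipolysis genes, 12 of 16 passed, 2 rose (Plin4 and Plin5) and none fell, with a median of 0.27. Pnpla2, adipose triglyceride lipase, was at 91.5 CPM in FS and 157 in FI, and its inhibitor G0s2 was at 29.6 and 16.7 CPM.

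Among 14 gluconeogenesis genes, all tested, 2 rose and none fell, with a median log2 ratio of 0.29. G6pc rose from 181 to 694 CPM, beside 206 in VS and 381 in VI, and Got1, the cytosolic aspartate aminotransferase of the malate shuttle, rose from 376 to 946 CPM. The gene usually taken as the marker of the pathway, Pck1, was at 4935 CPM in FS and 5252 in FI, a log2 ratio of 0.09, and Fbp1 was at 846 and 843 CPM. Thus the step that frees glucose rose while these 2 earlier steps stayed within 1.1-fold. Pcx, pyruvate carboxylase, another earlier step, was at 592 CPM in FS and 791 in FI, a log2 ratio of 0.42 (0.39 to 0.45). Of the 14 genes, 10 had an interval above 0 and 1 below. Ppargc1a, the coactivator PGC-1 alpha, was at 17.5 CPM in FS and 25.6 in FI, and Slc2a2, the hepatocyte glucose transporter gene GLUT2, at 235 and 159 CPM. In the list of glycogen and glycolysis genes, 20 of 20 passed, 1 rose (Ppp1r3g) and none fell, with a median of −0.13. Pklr, liver pyruvate kinase, was at 62.2 and 34.4 CPM, a log2 ratio of −0.85.

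Glucocorticoid receptor targets had the highest median of the 55 gene lists, 0.52, against 0.48 for the same list between VI and VS. All 20 passed the filter, 2 rose, none fell, and 17 had an interval above 0. Ddit4, an inhibitor of the growth kinase complex mTORC1, was at 55.3 CPM in FS and 175 in FI, beside 3.60 in VS and 15.1 in VI. Igfbp1, an insulin-suppressed binding protein of the insulin-like growth factors, was at 585 and 1396 CPM, beside 154 in VS and 533 in VI. Fkbp5, the receptor's co-chaperone, stood just inside 2-fold with 187 CPM in FS and 368 in FI, a log2 ratio of 0.97. The receptor gene itself, Nr3c1, was at 72.7 and 75.03 CPM. Of 16 hormone receptor genes, 11 passed and 2 rose, Adra2a and Lepr, while Gcgr, the glucagon receptor gene, was at 263 CPM in FS and 210 in FI and the insulin receptor gene Insr at 125 and 122 CPM.

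**Figure D3:**
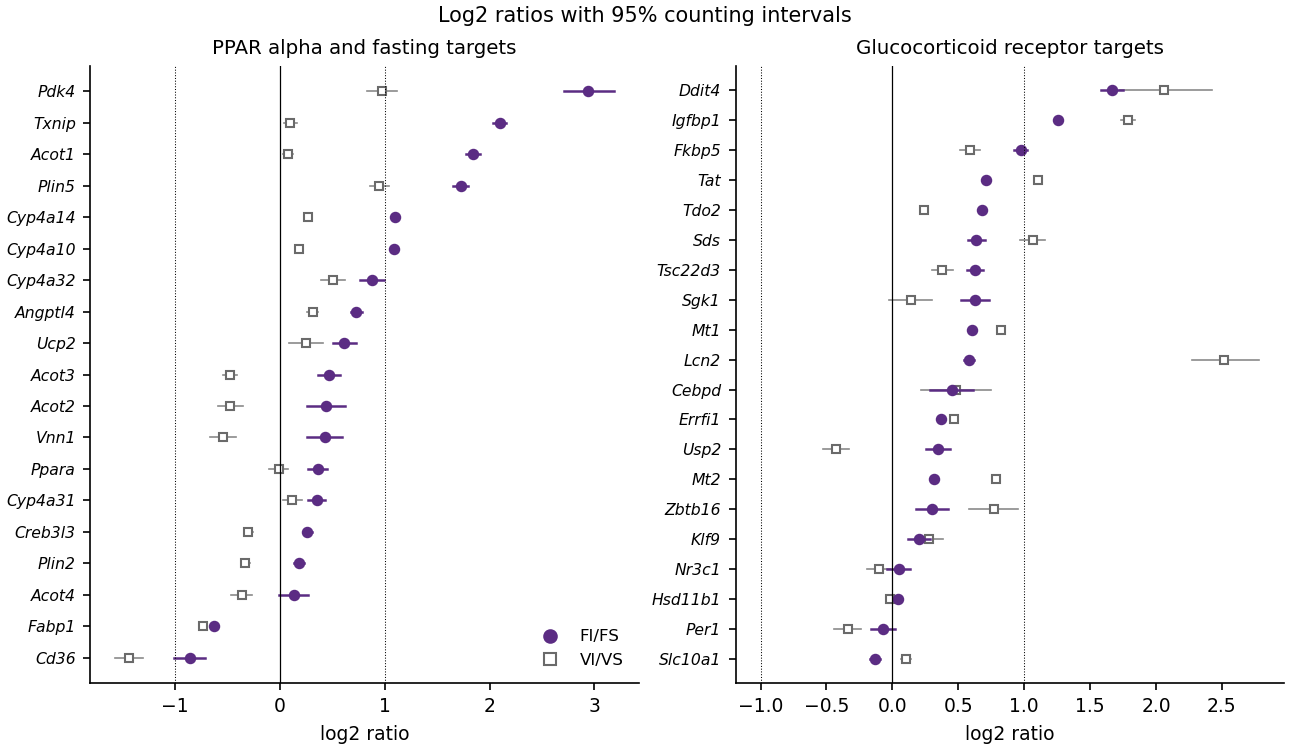
Log2 ratios (horizontal axes) of the 19 PPAR alpha and fasting targets (left) and the 20 glucocorticoid receptor targets (right) that passed the filter, with FI/FS as filled circles, VI/VS as open squares and bars for the 95% counting intervals. The dotted lines mark 2-fold. Pdk4 (2.94 and 0.97), Txnip (2.09 and 0.10) and Acot1 (1.84 and 0.08) lie apart in the 2 pairs, while Ddit4 and Igfbp1 lie beyond 2-fold in both.

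Of the 22 listed enzymes of cholesterol synthesis, 10 fell in FI and none rose. All passed the filter, and 19 had an interval below 0, with a median log2 ratio of −0.74 beside −0.52 in the vehicle pair. At the start of the pathway, Hmgcs1, which makes HMG-CoA, was at 98.3 CPM in FS and 35.0 in FI, while it was at 115 in VS and 117 in VI. In the middle of the pathway, Mvd was at 11.2 and 4.18 CPM, Idi1 at 11.8 and 2.40 CPM and Fdps at 50.9 and 21.5 CPM. Sqle, squalene epoxidase, the second controlled step, was at 22.2 CPM in FS and 3.64 in FI, a log2 ratio of −2.60 (−2.95 to −2.29). Of the later enzymes that act on the sterol ring, Msmo1, Nsdhl, Cyp51 and Sc5d fell. The members without such a difference were Hsd17b7, Ebp and Lbr, whose intervals included 0.

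Of 14 genes of sterol sensing and uptake, 13 passed, 3 fell and 1 rose. Stard4, a cholesterol carrier, was at 92.9 and 40.4 CPM. This gene, like those of the enzymes, is a textbook target of SREBP2, whose own gene Srebf2 was at 63.3 CPM in FS and 49.4 in FI. Insig2, an ER protein that holds the SREBP precursor in place, rose from 105 to 224 CPM (log2 ratio 1.09, and 1.15 between VI and VS), and its relative Insig1 was at 164 and 98.3 CPM. Abcg5 and Abcg8, which together export sterols into bile and are targets of the oxysterol receptor LXR, were at 79.7 and 113 CPM and at 99.6 and 168 CPM.

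The sterol response core CACCCCAC, a motif that SREBP proteins bind, was searched on both strands of the 250 bases before each transcript start in RefSeq promoters (GRCm38.p6). It was found in 2 of the 17 cholesterol synthesis genes with a promoter in the table, Hmgcs1 and Acat2, in none of 11 sterol sensing genes, and in 2.98% of all 27025 promoters. The stretch of the Hmgcs1 promoter is shown because Hmgcs1 fell in the fibril pair and not in the vehicle pair, with the core in capitals (plus strand, chr13:119690175-119690262).
Hmgcs1: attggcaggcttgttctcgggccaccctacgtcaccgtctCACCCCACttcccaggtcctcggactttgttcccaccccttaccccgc
A match is a description of the letters and not a measured binding site.

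**Figure D4:**
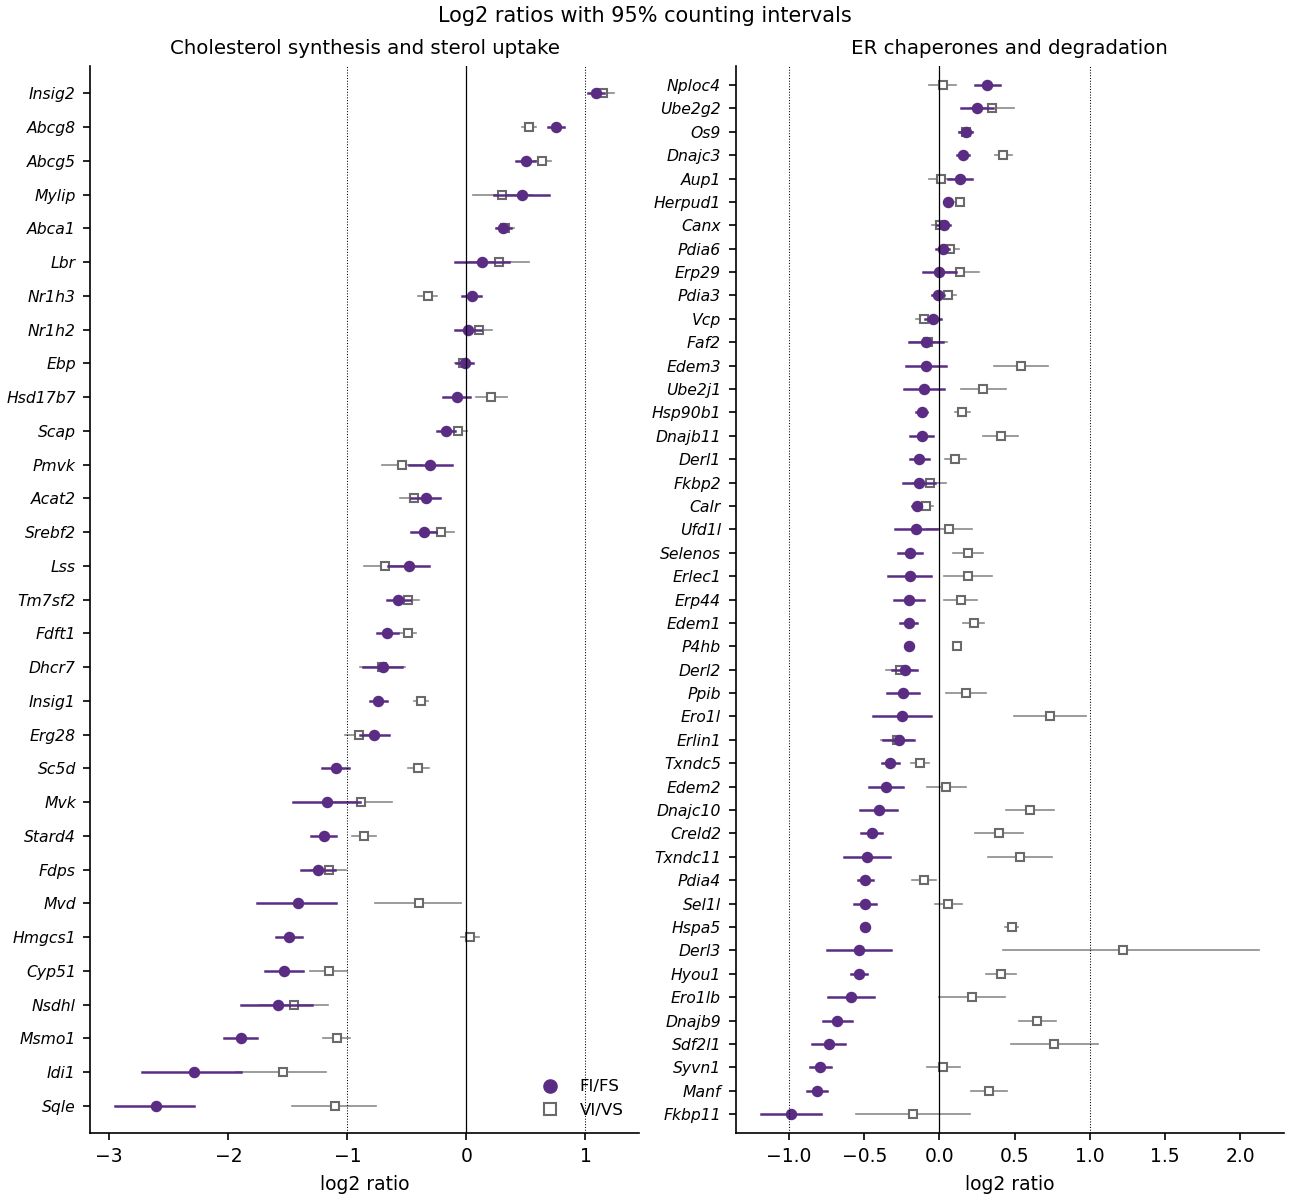
Log2 ratios (horizontal axes) of most genes of cholesterol synthesis and sterol uptake (left) and of ER chaperones and ER-associated degradation (right) that passed the filter, with FI/FS as filled circles, VI/VS as open squares and bars for the 95% counting intervals; the dotted lines mark 2-fold. On the left Sqle and Idi1 lie beyond 2-fold in both pairs, and Hmgcs1 in FI/FS alone (−1.49 and 0.03). On the right FI/FS lies below 0 and VI/VS above 0 for Hspa5 (−0.50 and 0.48), Sdf2l1, Dnajb9 and Manf.

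Genes of fatty acid and triglyceride synthesis moved both ways. Of 22 listed, 20 passed, Scd1 fell, Acacb rose, and the median log2 ratio was −0.23, beside −0.44 in the vehicle pair. Scd1, stearoyl-CoA desaturase, was at 2181 CPM in FS and 1029 in FI, beside 1250 in VS and 1981 in VI. Its log2 ratio was −1.08 in the fibril pair and 0.66 in the vehicle pair, with the highest of the 4 levels in FS. Acacb, the acetyl-CoA carboxylase whose product blocks fatty acid entry into mitochondria, was at 32.9 and 82.7 CPM. Fasn, fatty acid synthase, was at 157 and 134 CPM, Srebf1 at 165 and 102 CPM and Elovl5 at 261 and 148 CPM.

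Among 19 genes of HDL and lipoprotein remodelling, 18 passed and 4 fell, among them Angptl8 (38.5 to 15.2 CPM), an inhibitor of lipoprotein lipase that feeding induces, and Lpl (35.3 to 16.9 CPM), lipoprotein lipase. The genes that lay within 2-fold included Lcat, which esterifies HDL cholesterol, at 564 and 678 CPM, and the HDL receptor gene Scarb1 at 185 and 222 CPM. None of the 15 apolipoprotein genes changed by more than 2-fold, and their median log2 ratio was −0.01. Apoa2, the gene of the amyloid precursor, was at 5451 CPM in FS and 5627 in FI, a log2 ratio of 0.05 (0.04 to 0.06), beside 8482 in VS and 6584 in VI. Apoa1, the main HDL protein, was at 13474 and 14408 CPM. The precursor transcript thus differed between FI and FS by less than 1.1-fold in these pools.

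Bile acid genes gave 1 call. Of 25 listed, 23 passed and only Cyp7a1, the rate-limiting enzyme of bile acid synthesis from cholesterol, changed by more than 2-fold, with 107 CPM in FS and 34.1 in FI, a log2 ratio of −1.64 (−1.75 to −1.53). It was at 114 CPM in VS and 112 in VI, so 3 libraries were alike and FI was low. Cyp8b1, which sets the share of cholic acid, was at 146 CPM in FS and 177 in FI, and Cyp27a1, the first enzyme of the alternative pathway, at 283 and 371 CPM. Baat, which joins bile acids to taurine and glycine, was at 208 and 118 CPM. The bile acid receptor gene Nr1h4 (94.98 and 88.5 CPM) and its repressor target Nr0b2 (74.8 and 74.0 CPM) lay within 1.1-fold.

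ER chaperone transcripts lay within 2-fold of each other in FI and FS. All 25 listed chaperones and oxidoreductases passed the filter, and 20 had an interval below 0 and 1 above, with a median log2 ratio of −0.25, beside 0.18 between VI and VS. Summed over the list they made up 6708 CPM in FS and 5673 in FI, beside 3284 in VS and 3656 in VI. Hspa5, the master chaperone BiP, was at 1161 CPM in FS and 823 in FI, beside 308 in VS and 430 in VI, a log2 ratio of −0.50 (−0.52 to −0.47). Manf, a secreted ER stress protein, was at 193 and 110 CPM, and the J-domain co-chaperone gene Dnajb9 at 89.6 and 56.0 CPM. Sdf2l1, a subunit of the ER chaperone network, was at 69.8 CPM in FS and 42.0 in FI, and at 6.73 in VS and 11.4 in VI. For these members FI lay between FS and both vehicle libraries or, for Dnajb9, next to VI (57.3 CPM). Fkbp11, a prolyl isomerase, had the largest difference of the list, with 23.8 and 12.03 CPM and a log2 ratio of −0.99 just inside 2-fold. Calr (651 and 586 CPM), Hsp90b1 (526 and 485 CPM), Pdia3 (392.4 and 389.9 CPM) and Canx (290 and 295 CPM) differed by less than 1.2-fold.

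Of 20 genes of ER-associated degradation, which returns misfolded proteins to the cytosol, all passed, none changed by more than 2-fold, and 11 had an interval below 0 and 5 above, with a median of −0.14. Over all genes tested, 26.8% had an interval below 0 and 28.8% above. Syvn1, the ubiquitin ligase HRD1, was at 166 CPM in FS and 96.0 in FI, beside 53.3 in VS and 54.3 in VI, and its partner Sel1l at 147 and 105 CPM. Derl3, a channel component, was at 17.3 CPM in FS and 11.99 in FI, and at 0.762 in VS and 1.81 in VI. Of 11 sensors and effectors of the UPR, 10 passed and 1 fell, Creb3l2, an ER-bound transcription factor of secretory cells, with 36.8 CPM in FS and 17.9 in FI, beside 12.4 in VS and 18.1 in VI. Xbp1, the target of the sensor IRE1, was at 253 and 199 CPM, the sensor gene Eif2ak3 (PERK) at 25.4 and 18.5 CPM, and the IRE1 gene Ern1 at 50.03 and 50.1 CPM. Counts per gene do not separate spliced from unspliced Xbp1.

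In the ATF4 branch of the integrated stress response, 15 of 22 listed genes passed, 2 fell and none rose, with a median of 0.09. The members that fell were Trib3 (16.5 to 7.73 CPM), a pseudokinase, and Stbd1 (84.0 to 38.6 CPM), a glycogen-binding protein of the ER membrane. Ddit3, the gene of the stress factor CHOP, was at 9.99 and 6.49 CPM and Atf4 itself at 116 and 101 CPM, whereas Sesn2, a leucine sensor, was at 16.1 and 24.8 CPM.

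The ER stress response element, the letters CCAAT and CCACG with 9 bases between them, which NF-Y and ATF6 occupy, was found in the searched promoter stretch of 8 of 22 ER chaperone genes (36.4%), in 2 of 16 degradation genes (Derl3 and Syvn1) and in 0.13% of all promoters. The 8 chaperone genes were Hspa5, Hsp90b1, Dnajc3, Pdia6, Calr, Canx, Creld2 and Ero1lb, whose log2 ratios ran from −0.59 (Ero1lb) to 0.16 (Dnajc3), so the members with the element ranged over both signs. The CCAC letters are common to this element and the sterol core, and Hsp90b1 and Calr held both. The stretches of Syvn1 (chr19:6046492-6046575, plus strand), Derl3 (chr10:75893202-75893300, plus strand) and Creld2 (chr15:88819480-88819578, plus strand) are shown as degradation and chaperone genes with log2 ratios of −0.79, −0.53 and −0.45, with the element in capitals; in Derl3 and Creld2 it reads on the opposite strand.
Syvn1: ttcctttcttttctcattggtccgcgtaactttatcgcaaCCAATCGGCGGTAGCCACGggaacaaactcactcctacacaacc
Derl3: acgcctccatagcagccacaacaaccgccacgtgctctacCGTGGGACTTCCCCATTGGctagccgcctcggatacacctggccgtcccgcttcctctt
Creld2: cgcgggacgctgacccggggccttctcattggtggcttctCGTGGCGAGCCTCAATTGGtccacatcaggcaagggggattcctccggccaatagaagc
In Syvn1 the element ended 26 bases before the annotated start, and in Creld2 108 bases before it.

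Heat shock genes, cytosolic and mitochondrial, did not move as a group. Of 24 listed genes, 22 passed, 1 rose (Hspb1), 1 fell (Hspa1b), and the median log2 ratio was 0.12, beside −0.45 between VI and VS. Hspa1b, the inducible HSP70, was at 17.3 CPM in FS and 7.73 in FI, beside 49.5 in VS and 17.9 in VI; its near-identical copy Hspa1a had 11 counts in FS and 5 in FI, and the counting may have divided reads between them. Hsp90aa1, the inducible cytosolic HSP90, was at 124 CPM in FS and 174 in FI, while it was at 192 in VS and 77.7 in VI. Cryab, the small heat shock protein alpha B-crystallin, stayed under the filter with 1.76 and 1.45 CPM and an interval of its log2 ratio from −0.95 to 0.36. Hspb8, another small heat shock protein gene, was at 220 and 207 CPM and the co-chaperone gene Bag3 at 21.3 and 17.2 CPM. Within this family Hspb1 was therefore the member that rose.

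The heat shock element GAANNTTC, the core to which HSF1 binds, was found in the promoter stretch of 8 of 19 heat shock genes, Hspb1 and Hspa1b among them, and in 7.73% of all promoters. It reads the same on both strands. The stretches of Hspb1 (chr5:135887762-135887869, plus strand, 2 matches) and Hspa1b (chr17:34959295-34959382, minus strand, 1 match) are shown because these 2 carriers of the element moved in opposite directions.
Hspb1: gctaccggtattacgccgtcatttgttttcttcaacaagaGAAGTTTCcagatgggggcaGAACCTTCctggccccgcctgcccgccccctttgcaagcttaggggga
Hspa1b: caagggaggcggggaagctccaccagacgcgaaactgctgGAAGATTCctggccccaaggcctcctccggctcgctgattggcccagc

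Some genes of the p38 MAPK cascade rose. Of 21 listed, 15 passed, 3 rose, none fell, and 10 had an interval above 0 and none below, with a median of 0.38 beside 0.17 in the vehicle pair. The members that rose were Hspb1, a downstream substrate of the cascade, Gadd45g (60.7 to 159 CPM), an activator of the upstream kinase MTK1, and Dusp1 (43.3 to 91.1 CPM), a phosphatase that switches p38 off. Map2k6, the kinase that phosphorylates p38, was at 21.1 CPM in FS and 41.5 in FI, a log2 ratio of 0.98 just inside 2-fold, beside 24.6 in VS and 22.6 in VI. Mapk14, p38 alpha itself, was at 63.7 and 77.8 CPM. The list thus holds both an activator and an inhibitor of p38 among its rises, and counts say nothing of phosphorylation. The study had already named Hspb1 and Gadd45g as changed in these same libraries, and the list was written with earlier results known. Its count of rises is therefore no separate evidence on the cascade.

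None of the 17 p53 targets on the list that passed (of 23) changed by more than 2-fold, and their median log2 ratio was −0.05. Cdkn1a, the cell cycle inhibitor p21, had the highest ratio, with 30.8 CPM in FS and 56.1 in FI (log2 ratio 0.87, interval 0.74 to 0.99), beside 5.63 in VS and 35.4 in VI. Ccng1, cyclin G1, had the lowest, with 33.5 and 21.2 CPM, and Mdm2, the ligase that degrades p53, was at 24.1 and 23.2 CPM. Trp53 was at 14.9 and 16.0 CPM, with an interval that included 0. Gadd45g, which the study names with Cdkn1a as regulated by p53, was not on this list. It rose from 60.7 to 159 CPM (log2 ratio 1.39). Among 25 immediate early genes, 17 passed, Dusp1 and Nr4a1 (2.51 to 7.23 CPM) rose and Junb (80.3 to 37.99 CPM) fell. Egr1 was at 56.0 and 44.2 CPM, Jun at 25.9 and 35.3 CPM and Fos at 4.00 and 5.83 CPM, so the members did not share a direction.

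Clock genes of both phases changed. Of 6 genes in phase with Arntl, 4 passed and Cry1, a repressor of the clock, rose from 6.37 to 22.3 CPM. Arntl, the clock activator BMAL1, was under the filter with 1.12 CPM (33 counts) in FS and 4.71 CPM (114 counts) in FI, a log2 ratio of 2.06 (1.51 to 2.68). Of 13 genes in phase with Dbp and Per, 12 passed and 2 fell, Nr1d1 (49.0 to 7.19 CPM, beside 30.0 in VS and 7.10 in VI) and the clock output factor gene Dbp (80.9 to 25.5 CPM, beside 102 in VS and 22.2 in VI). The period genes lay within 2-fold, with Per1 at 73.3 and 69.7 CPM, Per2 at 24.6 and 26.6 CPM and Per3 at 40.04 and 30.8 CPM. Between VI and VS, Per2 and Ciart had log2 ratios of −0.84 and −1.38, while in the fibril pair they had 0.11 and 0.19. The part of the hour of dissection in these values was not tested.

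Plasma proteins of the acute phase were divided. All 26 listed genes passed, 2 rose, none fell, 16 had an interval above 0 and 10 below, and the median log2 ratio was 0.16, beside 0.51 in the vehicle pair. Saa1 and Saa2, the circulating serum amyloid A genes, were at 945 and 1803 CPM and at 523 and 1164 CPM in FS and FI, beside 30.0 and 9.95 CPM in VS and 155 and 51.1 CPM in VI. Their log2 ratios were 0.93 and 1.15 in the fibril pair and 2.37 and 2.36 in the vehicle pair. They are near-identical copies whose reads may have been divided between them. Saa3, the form of macrophages and other cells outside the liver parenchyma, was at 11.3 and 35.6 CPM, beside 7.83 in VS and 7.64 in VI. Lcn2, lipocalin-2, was at 367 and 549 CPM and Hamp, the iron hormone hepcidin, at 944 and 1397 CPM. The fibrinogen genes Fgb and Fgg (7502 and 6660 CPM), Apcs, the serum amyloid P component (1090 and 798 CPM), and Orm2 (149 and 97.4 CPM) had log2 ratios below 0, while Orm2 and Apcs had log2 ratios of 1.89 and 0.92 in VI over VS. The direction therefore differed among members of the list.

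No gene of the lists of complement (22 tested), coagulation and fibrinolysis (24), IL6 and STAT3 signalling (16) or negative acute phase and major plasma proteins (18) changed by more than 2-fold, and the medians lay between −0.08 and 0.11. C3, the central complement protein, was at 10480 CPM in FS and 11837 in FI, and Hc, complement C5, at 335 and 229 CPM. Socs3, the feedback inhibitor of IL6 signalling, was at 27.4 and 15.3 CPM. Trf, transferrin, was at 111 and 59.1 CPM, a log2 ratio of −0.91.

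Genes of drug and steroid metabolism gave some of the largest falls, and the Sult2a family the largest. Of 18 sulfotransferase genes, 10 passed and 5 fell, all of them Sult2a genes: Sult2a1, Sult2a2 (119 to 44.7 CPM), Sult2a3, Sult2a5 (38.3 to 7.85 CPM) and Sult2a6 (7.59 to 1.94 CPM). The log2 ratios of these 5 ran from −6.24 to −1.41 in the fibril pair and from −3.70 to −0.55 in the vehicle pair. Since these genes are near-identical neighbours on chromosome 7, reads may have been divided among them, and the 5 are not independent measurements. Sult1d1, which acts on small phenols and amines, was at 215 CPM in FS and 350 in FI, and Sult1a1 at 429 and 444 CPM. The median of the whole list, −1.04, was the lowest of the 55 lists.

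Of 60 listed genes of the cytochrome P450 families 1 to 3, 39 passed, 1 rose and 1 fell, and the median was 0.05. Cyp2b10, the classical target of the xenobiotic receptor CAR, rose from 41.2 to 116 CPM, with 11.2 in VS and 31.5 in VI, log2 ratios of 1.499 and 1.49. Cyp3a44, a female-biased steroid hydroxylase gene, fell from 87.0 to 35.5 CPM. Of 21 glutathione S-transferase genes, 17 passed and 2 fell, Gstm3 and Gstm4 (29.0 to 14.4 CPM). Gstm4 lay at the threshold with a log2 ratio of −1.01 and an interval from −1.19 to −0.83. Of 20 UDP-glucuronosyltransferase genes, 13 passed and none changed by more than 2-fold. Of 21 major urinary protein genes, only 4 passed and Mup9 fell from 21.5 to 6.41 CPM; most Mup genes are near-identical, and the counting may have left out or divided their reads.

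Sex-biased genes and the growth hormone axis that sets them moved without a common direction. All 20 female-biased genes passed, 1 rose, Sult2a1 and Cyp3a44 fell, and the median was −0.08. Of 20 male-biased genes, 8 passed and none changed by more than 2-fold. Of 14 genes of the growth hormone and IGF axis, 13 passed and Igfbp1 rose, while Igf1 was at 491 CPM in FS and 561 in FI, the growth hormone receptor gene Ghr at 296 and 251 CPM and Cish, a feedback inhibitor of the receptor, at 5.76 and 3.51 CPM.

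Genes that dispose of amino acids and ammonia lay mostly within 2-fold. All 14 genes of the urea cycle and ammonia handling passed, none changed by more than 2-fold, and 12 had an interval above 0 and 2 below, with a median log2 ratio of 0.22 beside 0.33 in the vehicle pair. Ass1 and Asl, which join aspartate to citrulline and split off arginine, were at 2060 and 3130 CPM and at 655 and 1032 CPM. Cps1, the entry enzyme, was at 2874 and 3493 CPM, but Otc, the next step, was at 323 and 296 CPM. Of 33 genes of amino acid catabolism, all passed, 2 rose (Got1 and Etnppl), none fell, and 21 had an interval above 0 and 7 below, with a median of 0.25. Tat, Hpd (2054 and 3607 CPM) and Tdo2 (1244 and 1997 CPM), which degrade tyrosine and tryptophan, and Aass (338 and 631 CPM), which degrades lysine, lay within 2-fold. Bhmt, which remethylates homocysteine, was the lowest of the list with 1202 and 662 CPM.

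Periportal hepatocyte genes, which largely overlap with these enzymes, had a median of 0.21, with 17 of 17 tested and 1 rise (Etnppl). Pericentral genes had a median of 0.13, with 14 of 16 tested and none beyond 2-fold. Cyp2e1 and Oat (310 and 489 CPM) had log2 ratios of 0.55 and 0.65, Glul, the defining gene of the cells next to the central vein, was at 477 and 511 CPM, and the ammonium transporter gene Rhbg was at 10.3 and 6.78 CPM. Of 20 hepatocyte transcription factors, 19 passed and none changed by more than 2-fold, with Hnf4a at 792 and 1014 CPM and Gata4 at 8.06 and 13.6 CPM.

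Of 22 hepatokine and activin family genes, 20 passed and 2 fell, Angptl8 and Inhbe (26.0 to 12.9 CPM), which encodes the activin E subunit. Tsku, tsukushi, an inhibitor secreted by the liver, was at 69.0 CPM in FS and 128 in FI, and Fst, the activin-binding protein follistatin, at 11.2 and 17.9 CPM. Fgl1, fibrinogen-like 1, was at 1798 and 1526 CPM while its log2 ratio was 1.29 between VI and VS. No gene of the lists of iron and BMP signalling (19 tested of 20), metallothioneins and zinc transporters (8 of 10) or NRF2 and antioxidant enzymes (21 of 24) changed by more than 2-fold. Their medians were 0.04, 0.07 and 0.03. Mt1, metallothionein 1, was at 2534 and 3859 CPM, and Tfrc, the transferrin receptor gene, at 22.6 and 35.0 CPM. Nqo1, the usual marker gene of NRF2, was under the filter with 4.34 and 2.03 CPM. Of 16 hypoxia-inducible genes, 12 passed and Ddit4 rose, while Vegfa was at 125 and 126 CPM.

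Among the chemokine, interferon-stimulated and MHC genes that passed the filter, only chemokine genes changed by more than 2-fold. Of 21 chemokine genes, 6 passed, Cxcl9 (7.82 to 20.0 CPM) and Ccl6 (11.7 to 29.3 CPM) rose, and Cxcl1 (48.0 to 23.5 CPM), a neutrophil attractant, fell. In the vehicle pair Cxcl9 and Cxcl1 had log2 ratios of 0.39 and 0.61. Of 26 interferon-stimulated genes, 17 passed and Cxcl9 was the one that rose. Of 22 genes of MHC and antigen presentation, 19 passed, none changed by more than 2-fold, and 13 had an interval below 0 and 1 above, with a median of −0.14. H2-Q10, a liver-secreted class I molecule, was at 941 and 627 CPM, and the class II gene H2-Aa at 7.66 and 4.84 CPM.

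Housekeeping machinery changed by small amounts. Of 75 cytosolic ribosomal protein genes, 74 passed, none changed by more than 2-fold, and 64 had an interval above 0 and none below, with a median log2 ratio of 0.18 beside 0.05 in the vehicle pair. Rps18, the highest, was at 136 CPM in FS and 176 in FI. Scaling by total counts shifts every log2 ratio by −0.07, which leaves the sign of this median as it was. Nuclear-encoded respiratory chain subunits (75 of 82 tested) had a median of 0.05, the mitochondrial genome (11 of 13) −0.01, proteasome subunits (37 of 39) −0.01 and lysosome and autophagy genes (25 of 25) 0.13, none of them with a gene beyond 2-fold. Within the last list, Ctsl, the protease cathepsin L, was at 1004 and 1512 CPM and Map1lc3b, the autophagosome protein LC3B, at 161 and 220 CPM. Of 21 cell cycle genes, only 4 passed and Ccnd1, cyclin D1, which opens the cell cycle in hepatocytes, fell from 39.1 to 10.5 CPM, beside 34.4 in VS and 15.8 in VI. The proliferation marker Mki67 was under the filter with 1.29 and 0.703 CPM.

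**Figure D5:**
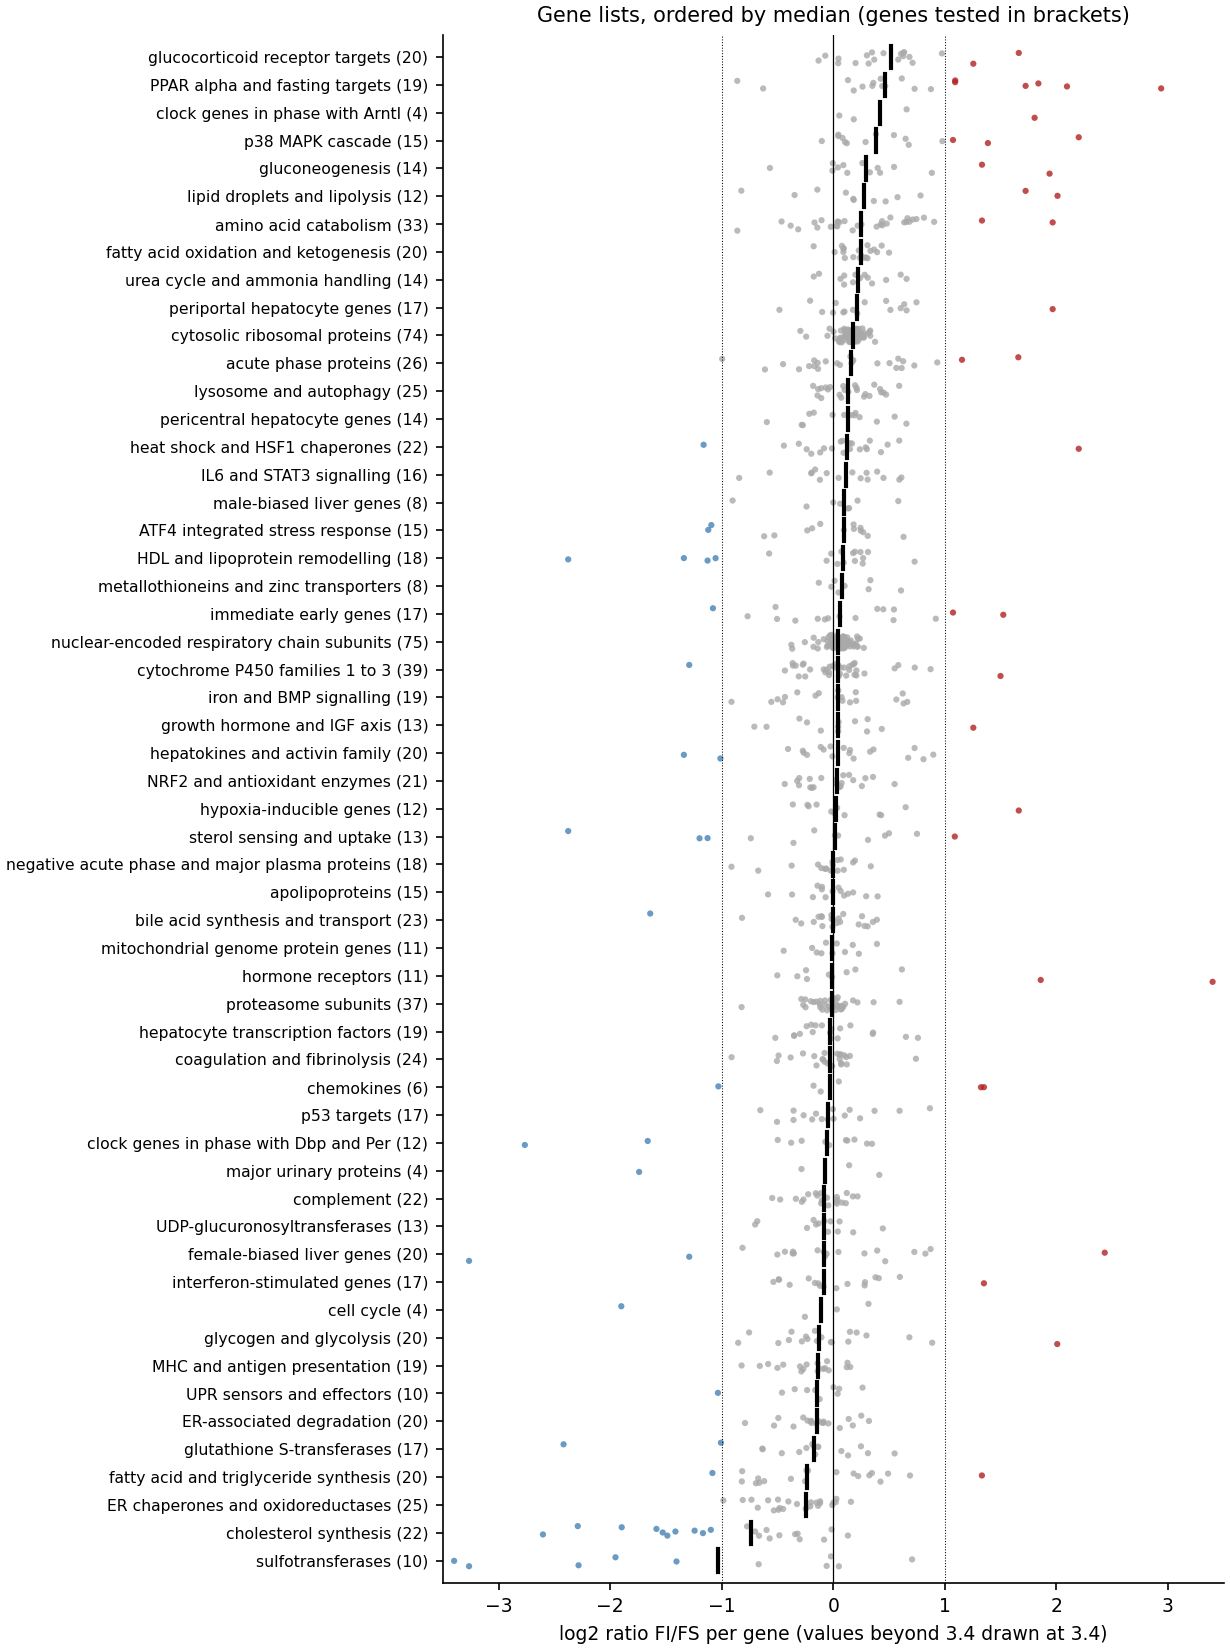
Log2 ratio FI/FS (horizontal axis) of each tested gene of the 55 gene lists, 1 list per line ordered by median (black bar), with the number of tested genes in brackets, red points more than 2-fold higher and blue points more than 2-fold lower in FI. Glucocorticoid receptor targets (median 0.52) stand at the top and cholesterol synthesis (−0.74) and sulfotransferases (−1.04) at the bottom, while most lists lie near 0. Sult2a3 and Adra2a are drawn at the edge of the axis.

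Markers of the other cells that liver tissue holds were given beside these values. The 16 Kupffer cell and macrophage markers, 15 of them tested, summed to 585 CPM in FS and 581 in FI, and none changed by more than 2-fold. Clec4f, the Kupffer cell lectin, was at 126 and 136 CPM. The 14 endothelial markers summed to 415 and 499 CPM, 11 of the 13 tested had an interval above 0, and Lyve1, a receptor of sinusoidal and lymphatic endothelium, rose from 1.83 to 6.57 CPM. The 21 stellate cell and matrix markers summed to 2090 and 2040 CPM, and Pdgfrb, the receptor gene of stellate cells, fell from 6.57 to 3.02 CPM. Bile duct markers summed to 41.9 and 39.8 CPM, beside 77.7 in VS and 52.5 in VI, of which Krt23 rose (4.40 to 13.2 CPM) and Spp1 fell (15.1 to 7.15 CPM). Of the vehicle sums, Krt23 alone gave 41.8 CPM in VS and 16.3 in VI. Erythroid markers summed to 253 CPM in FS and 339 in FI with no marker beyond 2-fold, while monocyte and neutrophil markers summed to 27.7 and 21.3 CPM, T, B and NK cell markers to 13.1 and 10.2 CPM and plasma cell markers to 51.3 and 41.9 CPM.

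Of the 13 skeletal muscle markers, 4 were at 0 counts in FS and 8 in FI, where 0 counts allow up to 3 counts or 0.102 and 0.124 CPM. The 12 pancreas markers summed to 15.2 and 12.8 CPM, mostly Cela1 (12.6 and 12.2 CPM) with Cela2a at 2.57 and 0.579 CPM, and the other 10 were at 0 in each library. Of the 7 adipose markers, only Car3, which hepatocytes also express, reached the filter, and Plin1, Lep and Retn were at 0 in both libraries. Gall bladder and gut epithelium markers summed to 63.2 and 72.9 CPM, beside 131 in VS and 94.5 in VI. The 11 hepatocyte markers found were all tested and summed to 170650 and 179027 CPM, and the defining markers of hepatocytes were abundant in both libraries. The part of any of these cell types in the differences above was not tested.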

How the data were processed

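Liver tissue of 4 mice per group was homogenized and pooled by the authors before RNA extraction, giving 1 library each for FS, FI, VS and VI. The authors deposited raw read counts for 35275 genes and FPKM values made from them; the submitters' processing notes name fastp 0.23.2, STAR 2.5, HTSeq 0.6.1 and the mm10 genome, without the strand setting. The labels map each library to 1 group.

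The tools were Python 3.11.15 with scipy 1.17.1 and matplotlib 3.10.9, and R 4.3.3 with edgeR 4.0.16 and DESeq2 1.42.0. Libraries were scaled by TMM over all 4 (factors 1.02 in FS and 0.975 in FI). Genes with at least 5 CPM in FI or FS were kept, 0.5 counts were added before log2 ratios, and 95% intervals are exact conditional binomial (Clopper-Pearson). With 1 library per group no test across mice was possible, and a log2 ratio beyond 1 in size was counted; edgeR's exact test of the 2 libraries served only as an alternative. The code was tested on simulated data.

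The 55 gene lists and 13 marker lists were written from general knowledge, and they and the compared libraries were chosen with earlier results of these data known. Iglc1, Tf and Ahsp of the marker lists were not found. Named genes are the 12 largest rises and 12 largest falls by the interval bound nearest to 0 (predicted genes passed over), the 10 largest CPM differences, the hallmark gene and 5 further members of each list, and liver transcripts named in the study, 293 genes in all, with further members added to complete a pathway; some genes are not reported here. Promoters come from RefSeq (GRCm38.p6), and the 250 bases before the start were searched. Alternatives were other scalings (DESeq2 size factors, total counts, total counts without the 10 most abundant genes, TMM on the pair alone), filters at 1 CPM, at 5 CPM in both libraries or none, 5 counts as prior, FPKM plus 1 or 0.1, a fold of 1.5, the whole interval beyond 2-fold, edgeR's exact test at an assumed biological coefficient of variation (BCV), and list means.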

Additional observations from a re-analysis of the deposited data

Results flagged for a closer look

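The 3 genes below changed by more than 2-fold in opposite directions in the fibril pair and the vehicle pair. With 1 library per group the difference between the pairs was not tested.

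Hspb1 had a log2 ratio of 2.20 in FI over FS and −1.03 in VI over VS, and its level was 4.81 CPM in FS, 22.2 in FI, 13.7 in VS and 6.69 in VI. The high levels were thus in FI and VS. By contrast, the study's quantitative PCR of individual livers reported Hspb1 higher in VI, in FS and in FI than in VS. Skeletal muscle, in which Hspb1 is abundant, had its 13 markers at 1.12 CPM in FS and 1.07 in FI, against 78.5 and 10.2 CPM in VS and VI, and their part in the level of VS was not tested.

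Krt23, a keratin of bile duct cells and injured hepatocytes, had a log2 ratio of 1.58 in FI over FS and −1.36 in VI over VS, with 4.40 CPM in FS, 13.2 in FI, 41.8 in VS and 16.3 in VI. The level in VS stood above the other libraries. Bile duct markers summed to 41.9 CPM in FS and 39.8 in FI, against 77.7 and 52.5 CPM in VS and VI. Krt23 is 1 of these markers and gave 41.8 of the 77.7 CPM in VS. The sum is therefore no separate measure of bile duct cells beside Krt23. Gall bladder and gut epithelium markers summed to 63.2, 72.9, 131 and 94.5 CPM in the same order, and the part of these cells in the result was not tested.

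Ly6d, a surface protein gene that lies outside the rule for named genes and was chosen after its values were seen, had a log2 ratio of −1.62 in FI over FS and 1.07 in VI over VS. It was at 5.39 CPM in FS, 1.74 in FI, 0.847 in VS and 1.81 in VI, and its VS level rests on 20 counts.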

How the results depend on the processing

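The number of genes beyond 2-fold depended on the filter and on the call rule. With a filter at 1 CPM it was 473 (197 higher, 276 lower), with no filter 4177 (1885 and 2292), and with 5 CPM required in both libraries 115, of which 65 were lower. With FPKM plus 1 it was 102 (35 and 67), with the whole interval beyond 2-fold 104 (46 and 58), and at 1.5-fold 799 (382 and 417). edgeR's exact test, which compares the libraries and not the conditions, called 44 genes (21 and 23) at an assumed BCV of 0.2 and 1 gene (0 higher, 1 lower) at 0.4, with adjustment by Benjamini-Hochberg. Other scalings, a prior of 5 counts and FPKM plus 0.1 kept the counts within 1.5 times. Total counts lowered every log2 ratio by 0.07 and gave 60 higher and 133 lower genes, beside 72 and 109 with TMM. Lists with a median beyond 1.2-fold numbered 8 of 55, and 16 when the mean of the members was used. Of 605 list values under the alternatives, 113 moved from the main median by at least the median half-width of the members' counting intervals. Of the 605, 2 changed the sign of a median beyond 0.1 in size. These were glycogen and glycolysis (mean 0.01, against −0.13) and cell cycle (0.03 with 5 CPM in both libraries, against −0.11). Of 1172 values of named genes under other scalings or the prior, 133 lay outside their counting interval, 125 of them under total counts. The causes of these moves were not tested. Of 64 named genes beyond 2-fold, only Gstm4 came within 2-fold under any scaling or prior, and none of the 64 reversed. No paired analysis was possible because each group has 1 library, and for the same reason no replicate could be left out and DESeq2 could not be run as a test. Depth limits the genes below the filter, since 5 CPM is 148 counts in FS and 121 in FI.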

Other observations

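Of the 181 genes beyond 2-fold, 117 were on none of the gene lists, and the genes named here were chosen after their values were seen. Several that fell have known roles in hepatocytes. Neat1, the architectural RNA of nuclear paraspeckles, was at 188 CPM in FS and 68.2 CPM in FI, and Osgin1, an oxidative stress growth inhibitor, at 285 and 119 CPM. Serpina7, thyroxine-binding globulin, was at 73.1 CPM in FS and 23.3 in FI, and Adh4, an alcohol dehydrogenase that acts on retinol, at 79.4 and 30.1 CPM. Slc22a7, the organic anion transporter OAT2, was at 33.0 and 9.18 CPM. In the vehicle pair these genes had log2 ratios from −0.89 (Adh4) to −0.12 (Osgin1), so each lay within 2-fold there.

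Among the rises outside the lists, Slc25a22, a mitochondrial glutamate carrier gene, was at 189 CPM in FS and 395 CPM in FI, and Flt1, a receptor of vascular endothelial growth factor, at 5.96 and 15.0 CPM. Dio3os, the antisense transcript of the Dio3 locus, was at 2.95 and 9.80 CPM, and no source used here states the strand setting of the counting. The cyclin-dependent kinase subunit genes Cks1b (5.49 to 2.27 CPM) and Cks2 (15.6 to 6.41 CPM) fell in the fibril pair, beside log2 ratios of 0.76 and 0.24 in the vehicle pair.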
